A study of Sus scrofa with 36 samples.

Results

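The effect of estrogen given together with bromocriptine, a drug that lowers prolactin secretion, was measured in the mammary gland of ovariectomized pigs, as the difference between group BE and group B over all genes. The groups are defined by their treatment labels, and they make up 8 of the 36 arrays of the study, with 4 animals each and 1 array per animal. Animals of group BE were female Yucatan miniature pigs aged 5 months that were ovariectomized and received bromocriptine for 8 days, and then bromocriptine and estrogen for 5 days. Animals of group B had the same operation and the same 8 days, followed by bromocriptine alone for 5 days. Both groups therefore lacked ovaries and carried bromocriptine throughout, and neither received progesterone. The 4 sham animals kept their ovaries, received saline for 13 days and are set beside both groups. All animals received BrdU, a label of DNA synthesis, before the end. BrdU counts and prolactin levels were not analysed here. The other groups used are HE (haloperidol and estrogen) against H (haloperidol), and BEP (bromocriptine, estrogen and progesterone) against BP (bromocriptine and progesterone), again with 4 ovariectomized animals each. They too were aged 5 months, with a first treatment of 8 days and a last treatment of 5 days. Their names follow the treatment label, and what was given in each period is not set out here.

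Estrogen is a main driver of duct growth in the mammary gland at puberty. It binds its receptor in a subset of luminal epithelial cells, which switch on genes such as the progesterone receptor and, as shown in mice, the growth factor amphiregulin, which passes the signal to neighbouring cells through the EGF receptor. Prolactin comes from the pituitary and drives milk protein genes through STAT5. Bromocriptine is a dopamine agonist that lowers prolactin secretion, and haloperidol is a dopamine antagonist that raises it. The comparison of BE with B thus asks what estrogen does to the gland in the absence of the ovary and under bromocriptine.

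Values are probe set summaries normalized by RMA and read as log2, so a difference of 1 is a 2-fold change. Differences are given ± SE from a linear model over all 36 arrays, and a difference was called at an adjusted p under 0.05 over all 20792 probe sets. Detection was not measured. Levels below 5.90, the lowest of the 36 arrays' lower quartiles, are called dim, and the size of a fold that starts from such a level is uncertain. Luminal markers were bright on most arrays, as in KRT8 at 12.61, 12.79, 12.64 and 12.51 in BE animals A to D and at 11.32, 12.53, 12.56 and 12.78 in B animals A to D. The RNA came from whole tissue, in which a change in the number of cells of a type and a change in RNA per cell cannot be told apart.

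B animal A stood apart from the other 7 arrays. Its score on the first principal component (35.2% of the variance of these 8 arrays) was 101.1, where the others lay between -44.9 and 15.04. The summed linear level of 21 skeletal muscle genes was 148310 in that animal, between 3338 and 4186 in the BE animals and between 3352 and 4048 in the other B animals. No BE muscle score, the mean of the list's genes after centring each gene over all arrays, exceeded -0.86, and that of B animal A was 6.64. Its luminal score of -1.32 was below those of the other B animals (0.09 to 0.57). B animal B stood out for milk protein genes, with CSN2 at 11.58 against 2.25 to 6.0 in the other B animals. Several results that rest on these animals are given without them as well.

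More probe sets were called higher than lower in BE. Of 20792 probe sets, 599 (2.88%) were higher in BE than in B and 186 (0.895%) were lower by the limma test, so that 76.3% of the calls were rises. With array weights the calls were 1121 higher and 777 lower (59.1% rises), and at an unadjusted p under 0.05 they were 1860 higher and 1610 lower. The median fold among the called probe sets was 2.73 for the rises and 2.13 for the falls, and the largest were 62.1 and 16.7. Only 248 of the 599 and 87 of the 186 carried a single gene symbol in the platform annotation. Counted by gene, 192 of 6360 (3.02%) rose and 57 (0.896%) fell. All BE arrays lay above all B arrays for 422 genes (6.64%) and below them for 277 (4.36%). The median difference over all genes was -0.02. Leaving out B animals A and B together left 368 probe sets higher and 151 lower. Leaving out BE animal B, BE animal A or BE animal D left 81, 82 or 121 lower, and leaving out BE animal B left 362 higher.

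**Figure D1:**
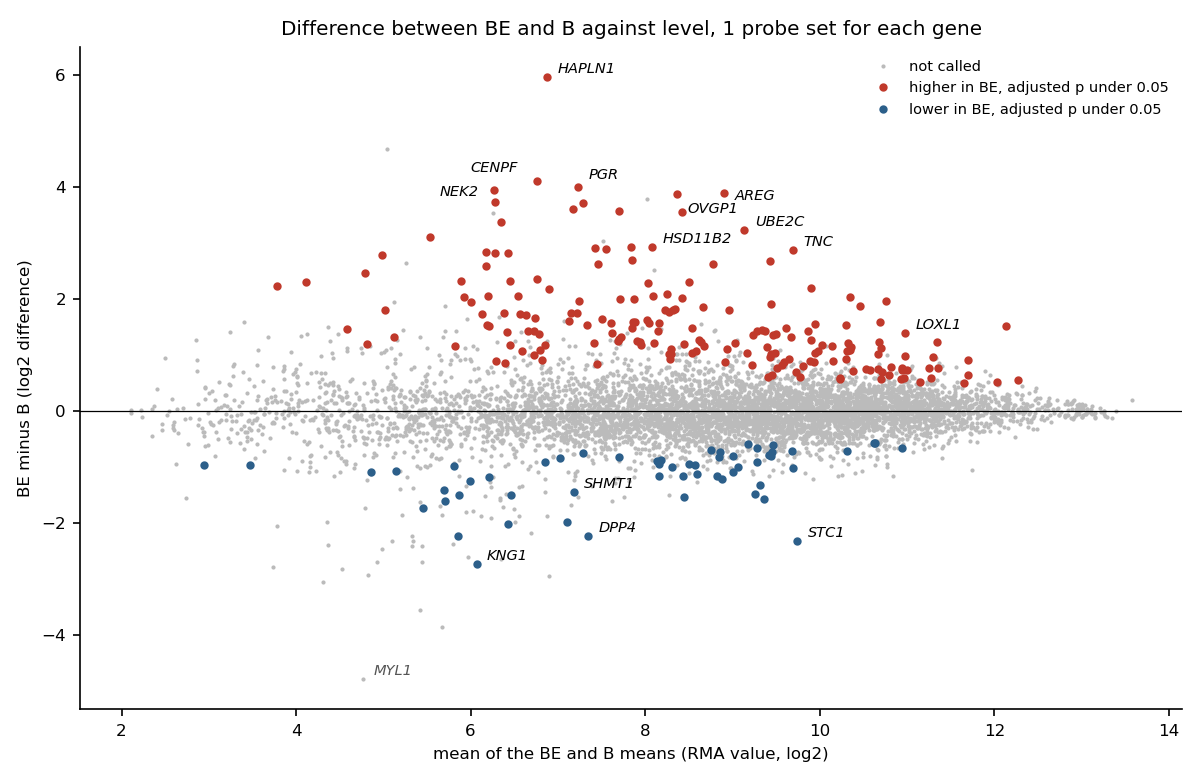
Difference between BE and B (log2, vertical axis) against the mean level over the arrays (log2, horizontal axis), with 1 point per gene. Called genes are coloured and named genes labelled; the called rises, up to 5.96 for HAPLN1, reach farther from 0 than the called falls, down to -2.74 for KNG1.

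Classical targets of the estrogen receptor were among the largest rises. PGR, the progesterone receptor, was at 9.33, 10.06, 8.52 and 9.01 in BE animals A to D, against 5.15, 6.49, 5.21 and 4.10 in B animals A to D. AREG, amphiregulin, was at 10.68, 11.52, 10.74 and 10.42 in BE animals, against 5.99, 8.25, 6.44 and 7.18 in B animals. In both genes the lowest BE animal lay well above the highest B animal. PGR rose by 3.99 ± 0.53 (adjusted p = 2.6e-05) and AREG by 3.88 ± 0.54 (adjusted p = 4.4e-05), or 15.9-fold and 14.7-fold, and the B level of PGR was dim. HSD11B2, which inactivates cortisol, was 7.58-fold higher in BE (adjusted p = 0.00073). OXTR, the oxytocin receptor on myoepithelial cells, averaged 9.26 ± 0.36 in BE and 7.43 ± 0.73 in B (SD, n = 4 each; adjusted p = 0.032). The OXTR call was lost without any array of the 8 other than B animal B, at adjusted p between 0.051 and 0.12.

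The list of classical targets was chosen with earlier results of these data known, so its share of calls is not independent of them. Of 20 measured members of this list, 5 rose (25%, against 3.02% of all genes), none fell and the median difference was 0.28. PGR, AREG, HSD11B2 and OXTR were among the 5, and direct control of the members by the receptor was not tested. The fifth was FHL2, a LIM domain cofactor, at 0.91 ± 0.24 (adjusted p = 0.027). Without B animal A, BE animal A, BE animal B, B animal C or BE animal D, the count was 3. ESR1, the estrogen receptor itself, was dim in both groups and its difference of 0.48 ± 0.33 did not pass (adjusted p = 0.50). MYC, a growth regulator that estrogen raises in breast cancer cells, was at 10.37, 10.08, 10.65 and 9.84 in BE and at 9.37, 9.26, 10.47 and 10.48 in B. The MYC groups overlapped (adjusted p = 0.71).

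The 14 largest rises also held genes of none of the lists. OVGP1, the oviduct glycoprotein, was at 10.05, 10.54, 9.92 and 10.69 in BE, against 6.03, 6.93, 5.67 and 7.12 in B. It rose 14.5-fold (adjusted p = 5.9e-06). MT1A, a metallothionein that binds zinc and copper, was at 8.92, 8.84, 9.89 and 8.93 in BE, against 4.55, 5.76, 6.38 and 5.04 in B, a rise of 13.1-fold from a dim level (adjusted p = 2.4e-05). LRRC43, a leucine-rich repeat protein, was at 7.49, 9.58, 7.77 and 7.29 in BE, against 4.91, 5.15, 4.36 and 4.23 in B, with adjusted p = 4.4e-05. For these genes no BE value reached down to the B range. None of the 14 largest rises lost its call when any 1 of the 8 arrays was left out.

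Further rises were named through the other contrasts. Those contrasts hold the BE arrays too, so this choice favours genes that were high in BE. PAQR7, a membrane progestin receptor, was 6.12-fold higher in BE (2.61 ± 0.30, adjusted p = 4.0e-06). GHRL, the hormone ghrelin, averaged 7.60 ± 0.35 in BE and a dim 5.29 ± 0.33 in B (SD, n = 4 each; adjusted p = 2.5e-05). CD55, which protects cells from complement, was 3.88-fold higher in BE (adjusted p = 0.00044). LPAR3, a lysophosphatidic acid receptor, was dim in both groups and 4.66-fold higher in BE (adjusted p = 0.027); its call was lost without B animal A, C or D or BE animal B or C, at adjusted p from 0.056 to 0.14. CRISP2, a cysteine-rich secretory protein, was 3.90-fold higher (adjusted p = 0.034), and its call was lost without B animal A or C or BE animal B or C, at adjusted p from 0.075 to 0.16. GSTA1, a glutathione transferase, rose 3.15-fold (adjusted p = 0.00062), and its probe sets gave differences from 1.65 to 5.14.

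**Figure D2:**
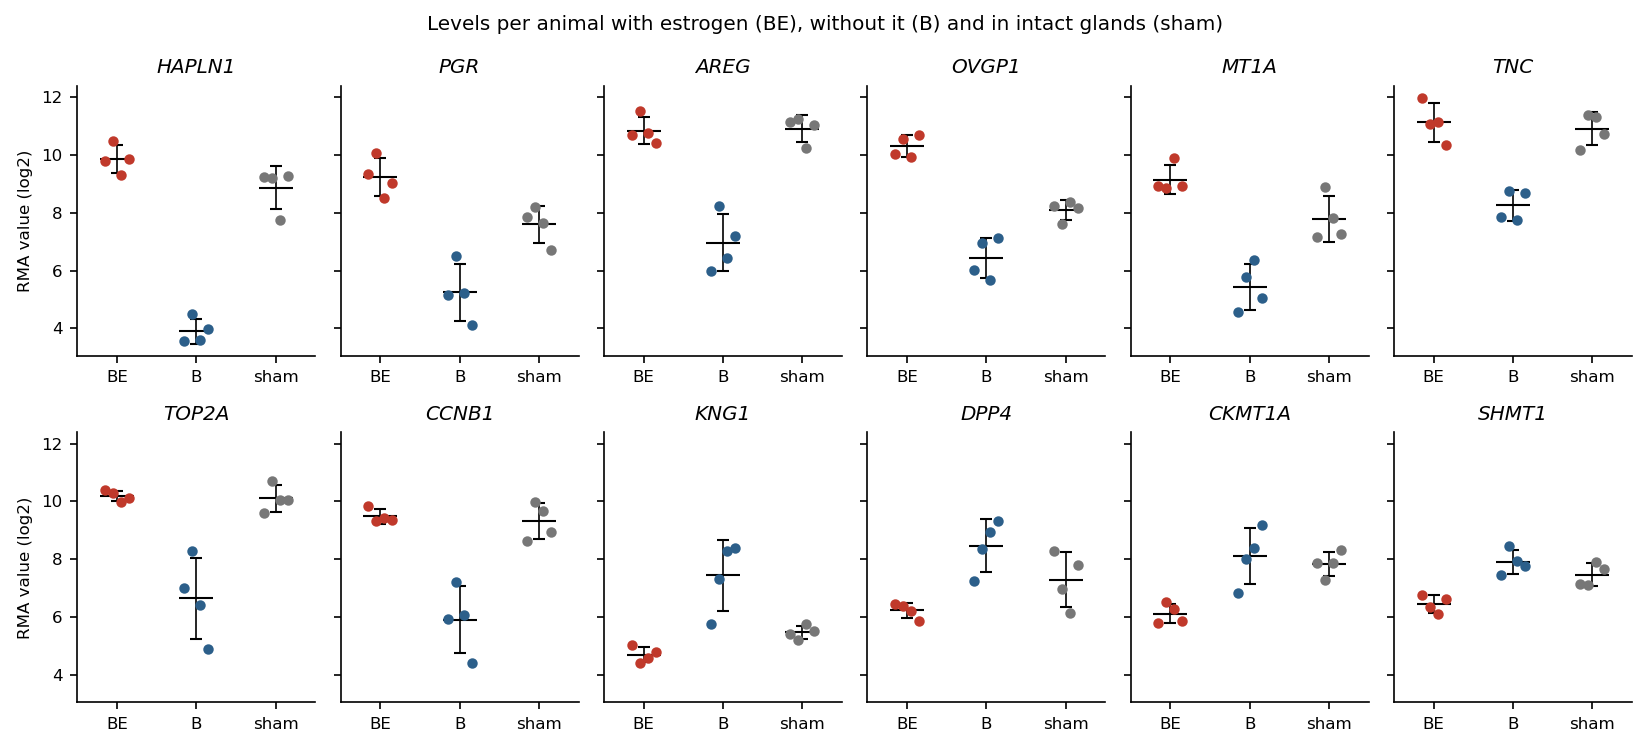
Level (RMA value, log2) of 12 genes in each BE, B and sham animal, with the mean and SD of each group (n = 4). The BE points of PGR, AREG, TOP2A and TNC lie above all B points, and those of KNG1, DPP4, CKMT1A and SHMT1 lie below all B points.

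All 25 lists were chosen with earlier results of these data known, and of them that of mitosis held the most called rises. Of 28 measured mitosis genes, 18 rose (64.3%, against 3.02% of all genes), none fell, and the median difference was 1.58. In 22 of the 28 every BE animal lay above every B animal, against 6.64% of all genes. TOP2A, the topoisomerase that untangles chromosomes, was at 10.38, 10.28, 9.97 and 10.13 in BE, against 7.01, 8.27, 6.41 and 4.89 in B. CCNB1, cyclin B1, was at 9.85, 9.31, 9.43 and 9.35 in BE, against 5.93, 7.22, 6.08 and 4.41 in B. The BE animals lay within a narrow range, the B animals were spread more widely, and B animal B was the highest of its group in both genes. TOP2A was 11.7-fold higher in BE (adjusted p = 0.00096) and CCNB1 11.9-fold (adjusted p = 0.0014).

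The other large rises of this kind started from dim levels. CENPF, a kinetochore protein, was at 8.71, 9.12, 8.59 and 8.83 in BE, against 4.66, 6.44, 4.55 and 3.17 in B (17.2-fold, adjusted p = 0.00012). NEK2, a centrosome kinase, averaged 8.24 ± 0.23 in BE and 4.29 ± 1.35 in B, with probe sets that ranged from 1.00 to 3.95. DLGAP5, a spindle protein, averaged 8.13 ± 0.53 in BE and 4.42 ± 1.31 in B. UBE2C, which feeds the anaphase-promoting complex and was not dim, averaged 10.75 ± 0.29 in BE and 7.52 ± 1.01 in B (SD, n = 4 each). These rises were 15.4-fold, 13.1-fold and 9.34-fold, with adjusted p of 0.00015, 0.00047 and 0.00046. FOXM1, a transcription factor of mitotic genes, rose 4.89-fold (adjusted p = 0.0055), and the mitotic kinases AURKA, AURKB and PLK1 rose by 1.54, 2.16 and 1.51. STMN1, which binds tubulin, was bright and tight in both groups, at 11.91, 12.08, 11.95 and 11.90 in BE and 10.71, 11.01, 10.68 and 10.54 in B (adjusted p = 0.00046).

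The mitosis score was 0.44 to 0.83 in BE animals and -1.87 to -0.47 in B animals, and B animal B was the highest of the B animals. The count of called members was 18 without B animal A, 18 without B animal B and 16 without both. Leaving out each BE or B array in turn gave 15 to 18.

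Of 29 measured genes of DNA replication, 7 rose (24.1%, against 3.02% of all genes) and none fell, with a median of 0.43, and in 11 every BE animal lay above every B animal (against 6.64% of all genes). RRM2, a ribonucleotide reductase subunit, was at 9.01, 7.94, 9.56 and 9.00 in BE, against 6.16, 7.31, 5.15 and 5.25 in B (7.52-fold, adjusted p = 0.0020). MCM2 and MCM3, subunits of the replicative helicase, rose 4.12-fold and 3.11-fold, with adjusted p of 0.00096 and 0.0041. The probe sets of MCM2 ranged from 0.39 to 2.04. PCNA, the sliding clamp of the polymerases, was at 11.06, 10.72, 10.83 and 10.86 in BE and at 9.89, 9.87, 9.86 and 9.55 in B (adjusted p = 0.0088). CLSPN, a checkpoint adaptor, and DNMT1, the maintenance DNA methyltransferase, rose by 1.36 and 1.00. TYMS, thymidylate synthase, was dim in B and its call (adjusted p = 0.040) was lost without any 1 of the 8 arrays, at adjusted p from 0.050 to 0.13. MCM5 was at 8.91, 8.34, 9.32 and 9.36 in BE and at 7.54, 8.66, 7.89 and 8.99 in B, where the groups overlapped (adjusted p = 0.25). Without BE animal A the count of called replication genes was 4.

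Outside both lists, PCLAF, a partner of PCNA, was at 9.42, 9.11, 8.17 and 9.22 in BE, against 5.99, 7.19, 4.02 and 4.29 in B (adjusted p = 0.00077). ASF1B, a histone chaperone, rose 8.61-fold (adjusted p = 0.00044), but its probe sets gave differences from -0.003 to 3.11. Among 22 genes of cell cycle exit, none rose and 1 fell (4.55%, against 0.896% of all genes), with a median of -0.16. That gene was FOXO1, a transcription factor of quiescence, at 8.07, 8.46, 8.89 and 8.81 in BE and at 9.19, 9.70, 9.77 and 9.60 in B (-1.01 ± 0.26, adjusted p = 0.022). Its probe sets ranged from -1.01 to -0.21, and the call was lost without BE animal A or B or B animal B, C or D, at adjusted p from 0.051 to 0.12. Of 26 genes of ribosome biogenesis none rose, and 1 fell (3.85%, against 0.896% of all genes). It was NOP2, a nucleolar methyltransferase, which fell by 0.80 ± 0.22 (adjusted p = 0.029). The NOP2 call was lost without B animal B, C or D or BE animal B or D, at adjusted p from 0.060 to 0.12.

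Genes of the extracellular matrix held the largest rise of all. HAPLN1, the link protein that ties hyaluronan to proteoglycans, was at 9.80, 10.46, 9.30 and 9.86 in BE, against 3.56, 4.49, 3.59 and 3.96 in B. In sham animals it was at 9.23, 9.20, 7.75 and 9.27. HAPLN1 was thus dim in all B animals and above that level in all BE and sham animals. The difference of 5.96 ± 0.69 (adjusted p = 4.0e-06) amounts to 62.1-fold. VCAN, versican, a proteoglycan that binds hyaluronan, was at 11.86, 11.61, 11.15 and 11.32 in BE, against 10.25, 10.73, 9.83 and 8.79 in B (adjusted p = 0.0015). TNC, tenascin-C, was at 11.96, 11.08, 11.14 and 10.33 in BE, against 7.86, 8.75, 7.74 and 8.70 in B (adjusted p = 0.00065). LOXL1, which cross-links elastin, was at 11.66, 11.78, 11.50 and 11.76 in BE, against 9.85, 10.56, 10.26 and 10.47 in B (adjusted p = 0.00016). BGN, biglycan, rose by 1.11 ± 0.26 (adjusted p = 0.011).

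These 5 were the called members among 27 measured genes of fibroblasts and matrix (18.5%, against 3.02% of all genes), none fell, and the median difference was 0.38. This list too was chosen with earlier results of these data known, so its share is not independent of them. In 10 of the 27 the BE animals lay wholly above the B animals, against 6.64% of all genes. The fibrillar collagens COL5A1, at 0.41 ± 0.13 (adjusted p = 0.064), and COL1A2, at 1.12 ± 0.45 (adjusted p = 0.17), did not pass and were picked after their values were seen. The count of 5 also held without B animal A, without B animal B and without both. Of 18 matrix proteases and inhibitors, 1 rose (5.56%, against 3.02% of all genes) and none fell, with a median of 0.27. It was SERPINE2, an inhibitor of serine proteases, at 9.24, 9.10, 9.38 and 9.37 in BE and 8.02, 7.77, 7.95 and 7.44 in B (adjusted p = 0.018). Without B animal D its adjusted p was 0.060.

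Metabolic genes changed in both directions. Of 19 genes of serine, one-carbon and amino acid supply, 4 rose (21.1%, against 3.02% of all genes). In the same list 1 fell (5.26%, against 0.896% of all genes), and the median was 0.17. MTHFD1L and MTHFD2, folate enzymes of mitochondria, rose by 1.21 ± 0.24 (adjusted p = 0.0024) and 1.16 ± 0.30 (adjusted p = 0.020). The MTHFD2 groups overlapped slightly, and its call was lost without BE animal A or D or B animal C or D, at adjusted p from 0.053 to 0.11. SMS, spermine synthase, rose by 1.22 ± 0.30 (adjusted p = 0.014, and 0.0504 without BE animal B), and ODC1, the entry enzyme of polyamine synthesis, rose by 1.15 ± 0.29 (adjusted p = 0.016). SHMT1, the cytosolic serine hydroxymethyltransferase, went the other way, at 6.77, 6.33, 6.09 and 6.63 in BE and at 7.46, 8.47, 7.93 and 7.78 in B (-1.45 ± 0.22, adjusted p = 0.00016). All probe sets of SHMT1 were lower in BE, from -1.45 to -0.53.

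The falls were smaller in number and size. KNG1, kininogen, was at 5.03, 4.41, 4.57 and 4.78 in BE, against 5.76, 7.31, 8.29 and 8.38 in B, and at 5.40, 5.21, 5.76 and 5.52 in sham animals. The B range of KNG1 lay above the BE range. B animal A was level with the highest sham animal, and the other B animals were above all sham animals. DPP4, a surface peptidase, was at 6.44, 6.38, 6.22 and 5.88 in BE, against 7.24, 8.35, 8.96 and 9.32 in B. CKMT1A, a mitochondrial creatine kinase, was at 5.79, 6.51, 6.28 and 5.88 in BE, against 6.83, 8.01, 8.39 and 9.17 in B. In all 3 genes B animal A was the lowest of its group, yet no BE animal reached it. KNG1 fell by 2.74 ± 0.55 (adjusted p = 0.0023), DPP4 by 2.24 ± 0.40 (adjusted p = 0.00078) and CKMT1A by 1.99 ± 0.40 (adjusted p = 0.0024). LGALS2, a galectin, fell by 1.5 ± 0.27 (adjusted p = 0.00084). KNG1, DPP4, CKMT1A, LGALS2 and SHMT1 were called without any 1 of the 8 arrays.

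The other 9 of the 14 largest falls lost their call without at least 1 array. STC1, stanniocalcin, was at 8.47, 8.45, 9.29 and 8.10 in BE, against 9.94, 10.78, 11.46 and 11.44 in B (adjusted p = 0.019, and 0.055 to 0.065 without BE animal A, B or D or B animal C or D). It was the single called member of 12 genes of the IGF system (8.33%, against 0.896% of all genes called lower), of which none rose. PAPSS2, which makes the sulfate donor of proteoglycan synthesis, was at 8.37, 8.60, 8.74 and 8.55 in BE, against 9.20, 9.67, 10.80 and 10.92 in B. Its adjusted p was 0.016, and 0.054 to 0.073 without BE animal A or B animal C or D. RAP1GAP, a brake on the GTPase Rap1, fell by 2.03 ± 0.49 (adjusted p = 0.013, and 0.054 to 0.077 without BE animal B or B animal D). KCNIP4, which binds potassium channels, fell by 2.23 ± 0.61 (adjusted p = 0.030), and the p was 0.052 to 0.11 without BE animal B, C or D or B animal C or D.

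For 2 of the falls B animal A was above the rest of its group. PHKG1, the muscle form of a phosphorylase kinase subunit, was at 4.71, 5.04, 4.37 and 4.23 in BE and at 8.95, 5.58, 5.38 and 5.40 in B. Without B animal A the difference of -1.74 shrank to -0.86, and the call (adjusted p = 0.023) was lost without that animal or BE animal A, C or D, at adjusted p from 0.052 to 0.074. PPARGC1A, a coactivator of mitochondrial genes, was at 5.35, 4.78, 5.30 and 4.53 in BE and at 7.08, 6.09, 6.24 and 6.23 in B. Its call (adjusted p = 0.012) was lost without B animal A or BE animal D, at adjusted p of 0.052 to 0.059, though the groups did not overlap. TSPAN7, a tetraspanin, LIMS2, an adaptor of integrin adhesions, and UBD, a ubiquitin-like protein, fell by 1.32, 1.49 and 1.54 with adjusted p of 0.019, 0.048 and 0.050. The call of LIMS2 was lost without any 1 of the 8 arrays, at adjusted p from 0.073 to 0.12. That of UBD was lost without any array but BE animal D, from 0.068 to 0.14, and that of TSPAN7 without BE animal A or B or B animal A or D, from 0.060 to 0.091.

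Milk protein genes were not called, and the animals of both groups were far apart. CSN2, beta-casein, was at 9.96, 9.01, 11.08 and 6.06 in BE and at 4.16, 11.58, 2.25 and 6.0 in B. BE animal D lay near the low B animals and B animal B above all BE animals. The difference of 3.03 ± 1.36 did not pass (adjusted p = 0.25), and without B animal B it was 4.89 with adjusted p = 0.016. Over the alternatives the adjusted p of CSN2 lay between 0.016 and 0.57. Of 22 milk genes none was called, with a median of 0.29. At an unadjusted p under 0.05 by limma 4 of the 22 were higher and 1 lower. Over all 20792 probe sets, 1860 were higher and 1610 lower at that p. Without B animal B 3 milk genes were called, all higher in BE: CSN2, CSN1S2 at 5.82 and CSN1S1 at 4.203, the last 2 being alpha caseins. LALBA and WAP, both whey protein genes, had differences of 1.87 (adjusted p = 0.69) and 1.12 (adjusted p = 0.78). Their highest values in B, 10.78 and 10.19, were again those of animal B.

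The measured fixed genes of the prolactin and growth hormone pathways did not pass. PRLR, the prolactin receptor, was not measured under its symbol. STAT5A and STAT5B, which carry the prolactin signal, differed by -0.03 ± 0.30 and -0.08 ± 0.34 (adjusted p = 0.97 and 0.94), with 95% intervals from -0.64 to 0.57 and from -0.77 to 0.61. The sign of both turned when some arrays were left out. The probe sets of STAT5A ranged from -0.80 to -0.03. GHR, the growth hormone receptor, was at 6.82, 6.53, 6.73 and 7.12 in BE and at 8.54, 8.02, 7.67 and 6.07 in B (adjusted p = 0.44). IGF1, which growth hormone induces in the stroma, was at 9.12, 8.44, 9.12 and 8.89 in BE and at 8.94, 9.01, 8.38 and 7.76 in B (adjusted p = 0.53). Of 16 hormone receptor genes, PGR and OXTR were called, both higher (12.5%, against 3.02% of all genes), and the median was -0.08. Of 6 EGF family genes only AREG was called (16.7%, against 3.02% of all genes called higher). EGF itself was at 5.75, 6.48, 4.75 and 6.50 in BE and at 10.07, 6.99, 6.14 and 5.72 in B (adjusted p = 0.46). Its difference of -1.36 ran from -1.86 to -0.41 when each BE or B array was left out in turn.

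Markers of the cell types that the tissue could hold were read from whole lists. Of 18 luminal epithelial genes none was called, and the median was 0.03, or -0.41 without B animal A. In that fit CLDN3, a tight junction protein, was called at -1.19 (adjusted p = 0.019). Their summed linear level was 26641 to 40549 in BE and 14908 to 44730 in B. Of 11 basal and myoepithelial genes 1 was called, higher in BE (9.09%, against 3.02% of all genes). It was ACTA2, smooth muscle actin, at 12.06, 12.12, 11.99 and 11.89 in BE and at 10.62, 11.78, 11.25 and 11.90 in B (adjusted p = 0.040). The list median was 0.63, and 0.28 with no gene called without B animal A. ACTA2 lost its call without any BE animal or without B animal A or C, at adjusted p from 0.057 to 0.21.

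None of 19 adipocyte genes was called, and all 19 differences were negative with a median of -0.40. Without B animals A and B the median was -0.001. Their summed level was 17429 to 27602 in BE and 21698 to 36319 in B. None of 18 endothelial genes was called and all 18 were negative, with a median of -0.34, and -0.32 without B animals A and B. Their summed level was 11989 to 16408 in BE and 16129 to 18089 in B. None of 27 genes of macrophages and other leukocytes was called (median -0.03). The 21 muscle genes had a median of -2.25 with none called, which was -0.29 without B animal A. Without B animal B, MYL1, a myosin light chain, was called at -6.14 (adjusted p = 0.023). At an unadjusted p under 0.05 by limma, 1 luminal gene was higher and 2 were lower. At the same p 2 adipocyte genes, 7 muscle genes, 1 leukocyte gene and no endothelial gene were lower, with none higher in these 4 lists. Over all 20792 probe sets, 1860 were higher and 1610 lower at that p. The part of these cell types in the called genes was not tested.

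**Figure D3:**
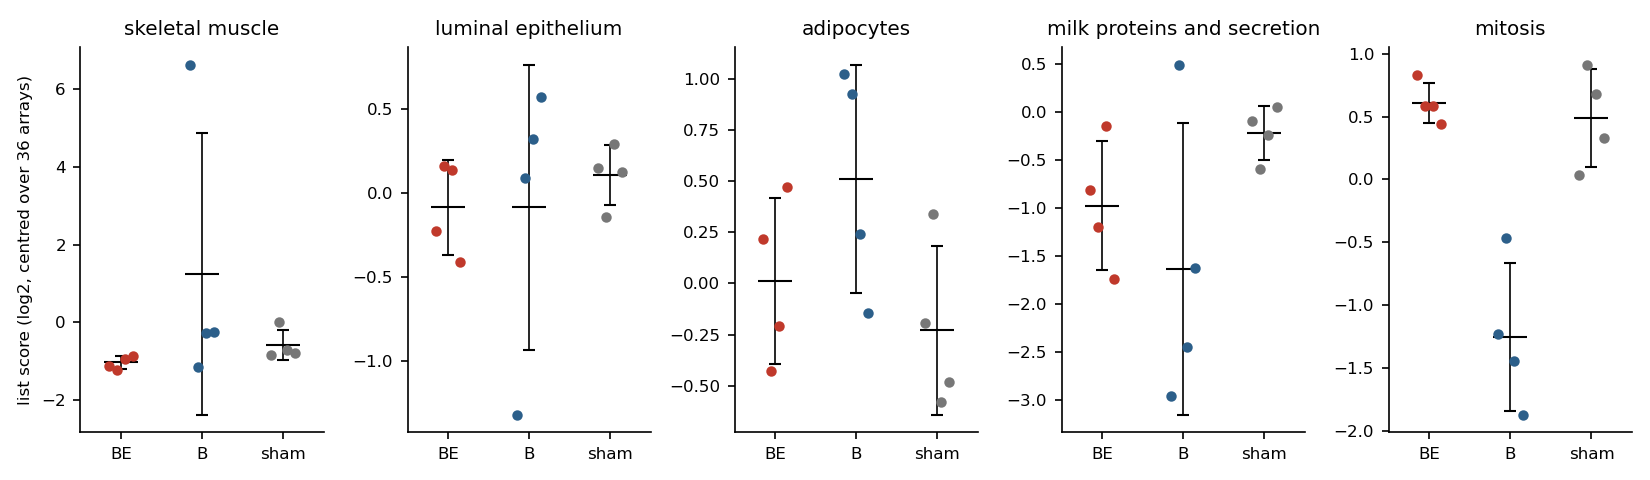
Scores of the lists for skeletal muscle, luminal epithelium, adipocytes, milk genes and mitosis in each BE, B and sham animal (vertical axis, mean of centred log2 values; horizontal axis, group). B animal A is at 6.64 for muscle and -1.32 for luminal genes, B animal B is at 0.49 for milk genes, and the mitosis scores of BE (0.44 to 0.83) lie above those of B (-1.87 to -0.47).

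Other lists had few or no called members. DKK3, a secreted Dickkopf protein, was the called member of 12 WNT genes (8.33%, against 3.02% of all genes called higher). It was at 11.82, 11.75, 11.66 and 11.72 in BE and at 10.53, 11.15, 11.07 and 11.14 in B (adjusted p = 0.015). Its call was lost without B animal A or BE animal A, at adjusted p between 0.052 and 0.078. DUSP6, a phosphatase that is switched on by ERK signalling and restrains it, was the called member of 17 immediate early genes (5.88%, against 3.02% of all genes). It rose by 0.58 ± 0.16 (adjusted p = 0.038), and the call was lost without B animal A or D or BE animal B or C, at adjusted p from 0.089 to 0.17. No member was called among 21 genes of fatty acid and sterol synthesis (median 0.02), 23 chaperones of the endoplasmic reticulum (0.16), 20 interferon genes (-0.11), 8 genes of skin and melanocytes (0.52) or 4 of red cells (0.26). In these 5 lists limma gave an unadjusted p under 0.05 for 1 lower gene of lipid synthesis and 1 higher and 1 lower chaperone. It did so for 2 higher genes of skin and melanocytes, and for no interferon or red cell gene. Over all 20792 probe sets, 1860 were higher and 1610 lower at that p.

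**Figure D4:**
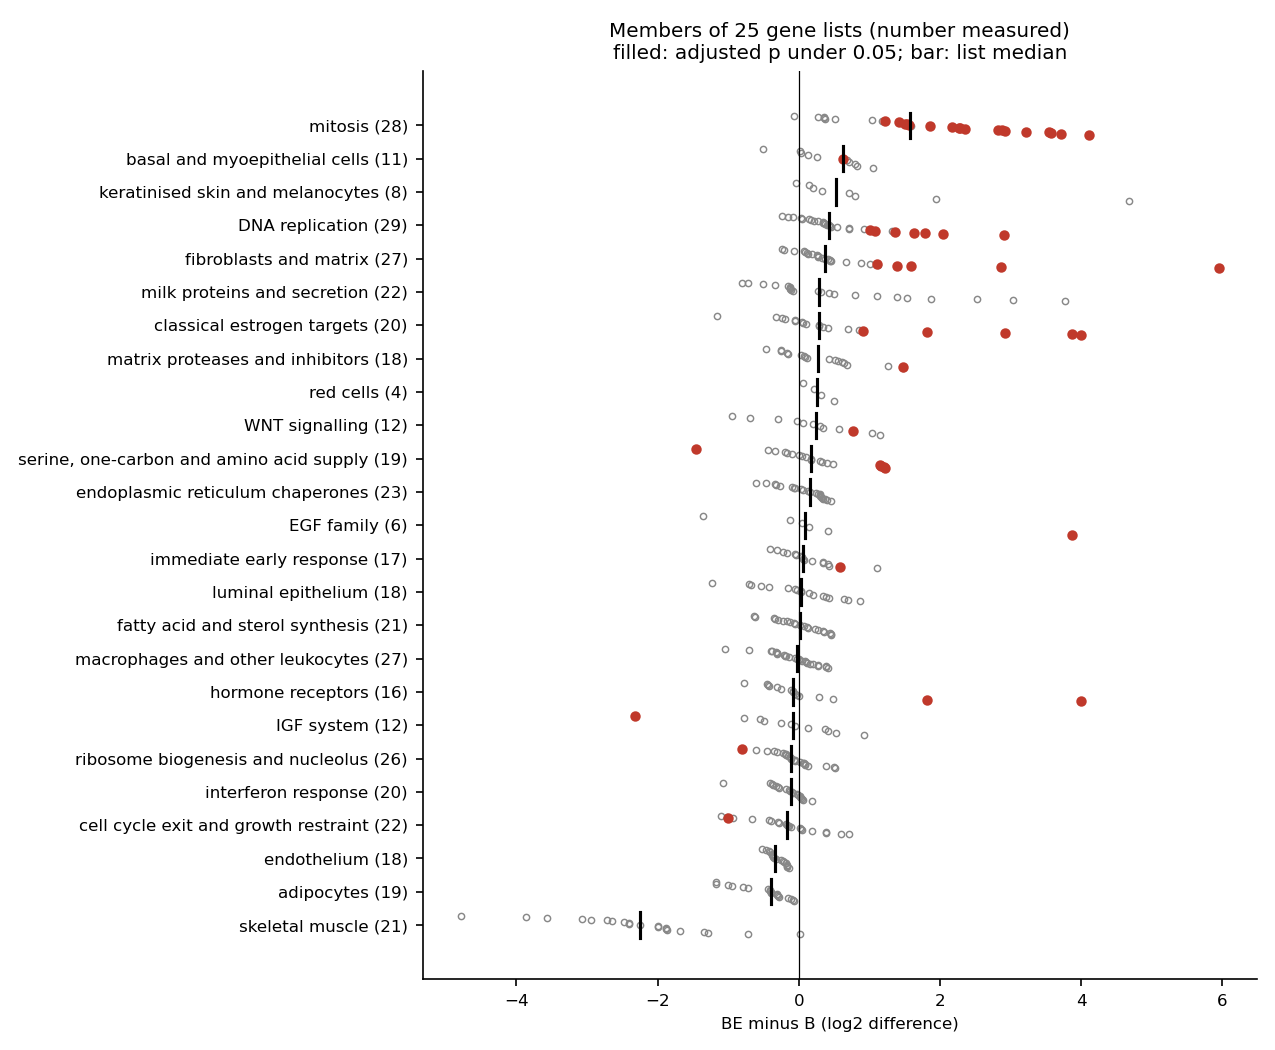
Differences between BE and B (log2, horizontal axis) of the measured members of 25 gene lists, 1 row per list, with called members filled and the list median as a bar. The medians of mitosis (1.58) and skeletal muscle (-2.25) lie farthest from 0, the first with 18 called members and the second with none.

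The BE glands were then set beside those of intact animals. Because the BE arrays enter both differences, the values stand side by side without a joint test. For BE against sham, 89 probe sets (0.428%) were higher and 42 (0.202%) lower, a count that fell to 7 in all without sham animal D and was 383 without sham animal C. No mitosis gene was called between BE and sham by limma, none reached an unadjusted p under 0.05, and the median was 0.14. The mitosis score was 0.04 to 0.91 in sham animals. Of 29 DNA replication genes 1 was called, MCM5, which was lower in BE, with 5 lower and none higher at an unadjusted p under 0.05 and a median of -0.26. Of 26 genes of ribosome biogenesis none was called, and the median was -0.33. At an unadjusted p under 0.05 by limma 8 of the 26 were lower and none higher. Over all 20792 probe sets, 1689 were higher and 1578 lower in BE than in sham at that p. AREG differed from sham by -0.07 (adjusted p = 0.97) and PGR by 1.63 (adjusted p = 0.13). OVGP1 exceeded sham by 2.20 (adjusted p = 0.024), PAQR7 by 1.57 (adjusted p = 0.013), CD55 by 1.68 (adjusted p = 0.015) and LRRC43 by 1.92 (adjusted p = 0.049).

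Below sham were RAP1GAP by -2.59 (adjusted p = 0.012), GIF by -1.74 (adjusted p = 0.028), CKMT1A by -1.71 (adjusted p = 0.042), MCM5 by -1.59 (adjusted p = 0.019) and CD93 by -1.52 (adjusted p = 0.041). GIF, gastric intrinsic factor, was dim in BE and in sham. MCM5, a helicase subunit, was at 10.70, 10.42, 10.22 and 10.96 in sham animals, above all BE animals. CD93, an endothelial receptor, was at 8.44, 8.93, 9.05 and 9.33 in BE, 7.52, 8.61, 8.90 and 10.14 in B, and 10.33, 10.52, 10.41 and 10.59 in sham animals. Each of these 9 genes lost its call against sham without at least 3 of the 8 arrays, with the highest adjusted p between 0.099 and 0.26. BE animals A and B were among them in each of the 9 genes.

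The estrogen effect was also measured in 2 other backgrounds whose arrays are separate from those of BE and B. Under haloperidol (HE against H) 2039 probe sets (9.81%) rose and 2109 (10.1%) fell. With progesterone under bromocriptine (BEP against BP) 122 (0.587%) rose and 41 (0.197%) fell. Of the 599 probe sets that rose in BE, 290 also rose in HE against H, which is 48.4% of the first list and 14.2% of the second, and 55 rose in BEP against BP, 9.18% and 45.1%. The sign was positive for 84.8% of the 599 under haloperidol and for 93.8% with progesterone, where it was positive for 49.5% and 52.5% of all probe sets. Of the 186 that fell in BE, 55 fell in HE against H (29.6% and 2.61%) and 8 fell in BEP against BP (4.30% and 19.5%). The sign was negative for 71.0% and 75.8% of the 186. The median log2 difference of the 599 was 1.45 in BE against B, the comparison they were chosen on, 0.77 in HE against H and 0.68 in BEP against BP. Over all probe sets it was -0.006 in HE against H and 0.025 in BEP against BP.

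The values for BEP against BP depend on BP animal A, and its effect on them was examined after they were seen. Its mitosis score was 1.43, above those of the BEP animals (0.05 to 0.67) and of the other BP animals (-1.36 to -0.87). Its muscle score was 3.24, against -1.28 to -0.86 in BEP animals and -1.09 to 0.55 in the other BP animals, and it had the lowest array weight of the 36 arrays (0.208). Without it 1305 probe sets rose and 1035 fell, 287 of the 599 rises (47.9% of them and 21.99% of the 1305) and 46 of the 186 falls (24.7% of them and 4.44% of the 1035) were shared, and the median of the 599 was 0.89. Leaving out any other BEP or BP array gave 35 to 185 rises and 9 to 122 falls. For HE against H, leaving out each array gave 1387 to 1882 rises and 1384 to 1875 falls, the fewest of both without H animal D.

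Mitosis genes rose in the haloperidol background too, with 24 of 28 called (against 13.4% of all genes) and a median of 2.57. With progesterone none of 28 was called (median 0.80, against 0.755% of all genes). At an unadjusted p under 0.05 by limma 11 of the 28 were higher, against 1838 of all 20792 probe sets. Without BP animal A, 16 of 28 were called in BEP against BP, all higher (against 6.16% of all genes), with a median of 1.55. No mitosis gene passed the test of the difference between backgrounds by limma. At an unadjusted p under 0.05, 3 of the 28 had the larger value under haloperidol than under bromocriptine. This was close to the share over all probe sets (2089 of 20792). At the same p 6 of the 28 had the smaller value with progesterone than without it, against 641 of 20792 probe sets. Without BP animal A the count was 3 of the 28. TOP2A differed by 3.84 (adjusted p = 0.00018) in HE against H and by 1.80 (adjusted p = 0.16) in BEP against BP, which was 2.69 (adjusted p = 0.0031) without BP animal A. AREG rose in both other backgrounds, by 2.29 (adjusted p = 0.0037) and 2.72 (adjusted p = 0.010), as did TNC by 2.08 (adjusted p = 0.0042) and 2.35 (adjusted p = 0.020). In BEP against BP the AREG call was lost without BP animal B or D or BEP animal C, at adjusted p from 0.053 to 0.064, and the TNC call without BP animal B or D or BEP animal B, C or D, at adjusted p from 0.060 to 0.11. PGR rose by 2.66 (adjusted p = 0.00083) under haloperidol and differed by 0.92 (adjusted p = 0.39) with progesterone, or 1.72 (adjusted p = 0.013) without BP animal A. The PGR effects were not called different from that in BE.

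**Figure D5:**
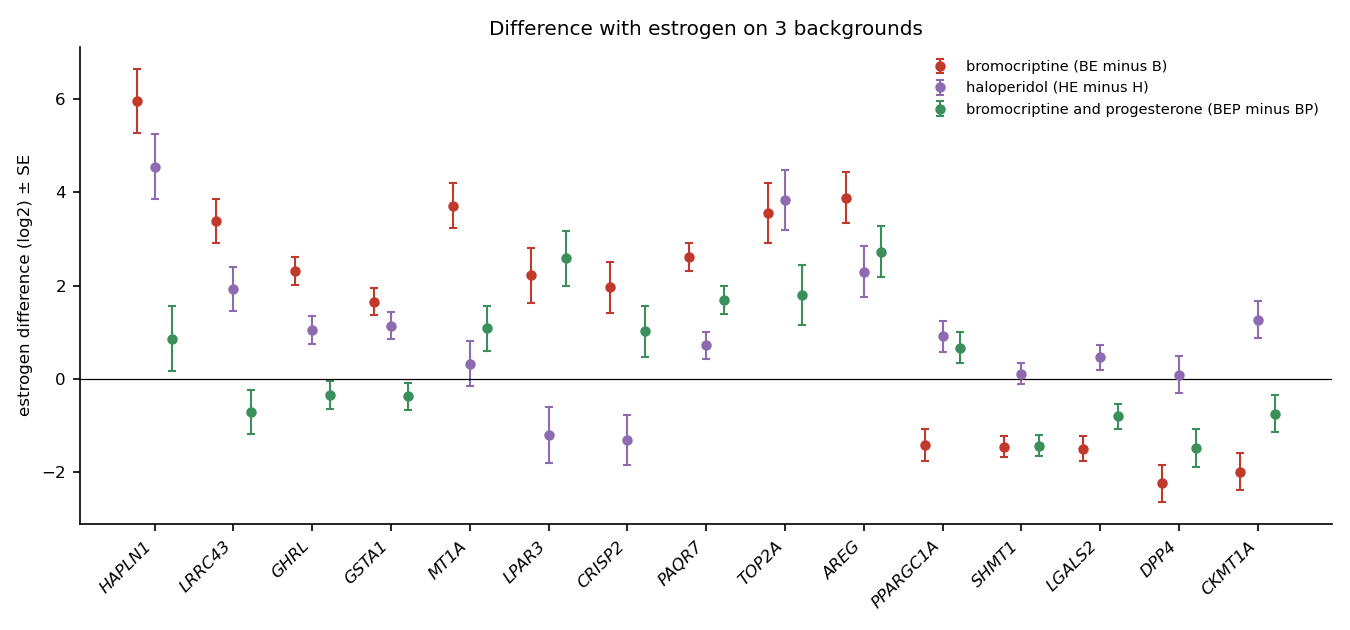
Estrogen difference (log2 ± SE, n = 4 animals per group) of 15 genes in BE against B, HE against H and BEP against BP. AREG lies above 0 in all 3 backgrounds, and MT1A is at 3.71 in BE against B, 0.33 in HE against H and 1.08 in BEP against BP. BP animal A is included.

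The difference between the haloperidol and bromocriptine backgrounds was tested directly. It was called for 430 probe sets (2.07%), 247 (1.19%) with the larger value under haloperidol and 183 (0.88%) with the larger value under bromocriptine, and for 47 without H animal D and 693 without HE animal A. MT1A rose in BE but was at 0.33 in HE against H (difference -3.39, adjusted p = 0.015). CKMT1A fell in BE and rose by 1.27 in HE against H (adjusted p = 0.023, and 0.055 to 0.091 without H animal C or D or HE animal B, C or D), a difference of 3.26 (adjusted p = 0.0063). LGALS2 and SHMT1, which fell in BE, had 0.46 and 0.11 in HE against H, with differences of 1.96 (adjusted p = 0.012) and 1.56 (adjusted p = 0.016). GPX2, a glutathione peroxidase of epithelia, and FABP7, a fatty acid binding protein, were at -0.61 and -0.49 in BE against B, where neither passed, and rose by 3.54 and 4.60 in HE against H. With each BE or B array left out in turn, GPX2 ran from -0.82 to -0.05 in BE against B. The differences for GPX2 and FABP7 were 4.15 (adjusted p = 0.0070) and 5.10 (adjusted p = 0.021). These 6 genes kept the call of this difference without any 1 of the 16 arrays. Others, such as PAQR7 (-1.90), DPP4 (2.33) and PPARGC1A (2.33), were called but not without every array.

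Between the backgrounds with and without progesterone 12 probe sets (0.0577%) differed, 9 of them (0.0433%) with the smaller value in BEP against BP. The 4 genes were HAPLN1 (-5.09, adjusted p = 0.021), LRRC43 (-4.08, adjusted p = 0.0036), GHRL (-2.66, adjusted p = 0.0036) and GSTA1 (-2.02, adjusted p = 0.044). HAPLN1 was 5.96 higher in BE than in B and 0.86 higher in BEP than in BP (adjusted p = 0.56), or 1.79 (adjusted p = 0.053) without BP animal A. The calls of LRRC43 and GHRL held without any 1 of the 16 arrays. That of HAPLN1 was lost without B animal A or C, BE animal B or BEP animal C, at adjusted p up to 0.078. GSTA1 lost its call without BP animal A, any B animal, BE animal B or C, or BEP animal B, C or D, at adjusted p up to 0.14.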

How the data were processed

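The authors deposited RMA values for 1 array per animal, normalized by them per the labels. The sources used here give no RMA version. The base of the logarithm is not stated. The deposited values ran from 1.55 to 13.7 with array medians between 7.83 and 7.91 and were read as log2. They were used with no further normalization. Arrays have no read depth, and 4 animals per group limit the precision. Gene names came from the platform annotation: 9149 probe sets had 1 symbol, 178 several and 11465 none. Where several probe sets had a symbol, the brightest by its mean over the 36 arrays stood for the gene.

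limma 3.58.1 (R 4.3.3) was fitted to all 36 arrays with 1 mean for each of 9 groups (27 residual and 4.16 prior degrees of freedom). Tests were two-sided, with Benjamini-Hochberg adjustment over 20792 probe sets in each comparison and none across comparisons. The fit was tested on simulated data. The genes named are the 14 largest called changes in each direction whose groups do not overlap, up to 4 called members of each of 25 lists with members needed to account for a count, up to 5 genes in each direction of the other 3 contrasts, and 16 fixed genes, of which 12 were measured. One gene that the rule names for BE against sham is not reported here. The groups, lists and rules were chosen with earlier results of these data known.

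The letters A to D name animals. The labels do not say that a letter links groups, and same-letter correlations of deviations between BE and B were 0.11, 0.11, 0.089 and 0.082, so the letters were not taken as pairs. Alternatives were another normalization, filters, variance models, array weights, the letter as a block (statmod 1.5.0), a fit on fewer groups and leaving out arrays in turn. Leaving out arrays for HE against H and BEP against BP was chosen after seeing the data. Promoter and protein sequences were not analysed here.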

Additional observations from a re-analysis of the deposited data

Results flagged for a closer look

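In all, 194 sets of 4 animals were examined (named genes and list scores, in BE and in B). Of them 11 held an animal set apart from the others, close to the share of about 5% that chance sets apart. B animal A held 7 of these: ARG2, arginase, at 9.90 where the others lay between 6.08 and 6.22, DKK3 at 10.5, GPX2 at 7.61, PHKG1 at 8.95, PPARGC1A at 7.08, SMS at 10.4 and the skeletal muscle score at 6.64. B animal B held LALBA at 10.8 and LPAR3 at 3.71. BE animal C held MT1A at 9.89, and B animal C held the score of the serine, one-carbon and amino acid list at -0.44.

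The estrogen effect under haloperidol minus that under bromocriptine passed the limma test for 18 of the genes named. Over all genes it passed for 150 of 6360 (2.36%). Up to 5 genes in each direction were named because they passed this same test, so the 18 are a listing and no independent count. It was positive for ARG2 (4.08), CKMT1A (3.26), CLCA1 (4.48), DPP4 (2.33), EGF (4.55), FABP7 (5.10), GPX2 (4.15), LGALS2 (1.96), NOP2 (1.30), PPARGC1A (2.33), SHMT1 (1.56) and STAT5B (1.73). It was negative for ATP6V0D2, a proton pump subunit (-4.66), CRISP2 (-3.27), LPAR3 (-3.42), MMP7, matrilysin (-2.85), MT1A (-3.39) and PAQR7 (-1.90). Of these 18, CKMT1A, FABP7, GPX2, LGALS2, MT1A and SHMT1 were called without any 1 of the 16 arrays, and each other gene lost its call without at least 1. The estrogen effect with progesterone minus that without it passed for GHRL (-2.66), GSTA1 (-2.02), HAPLN1 (-5.09) and LRRC43 (-4.08). These were the only 4 of 6360 genes (0.0629%) that passed, and the naming rule takes in each of them for that reason.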

How the results depend on the processing

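Of 52 called genes named for BE against B, 28 were called under every alternative that gave a value, 31 without each BE and B array, and none changed direction. Array weights gave 1121 higher and 777 lower (59.1% higher against 76.3% as reported), 2033 for the difference between the haloperidol and bromocriptine effects, 33 for that with progesterone, 3725 for BE against sham and 9 matrix genes. Without the dimmer 50% of the probe sets, fewer of which were tested, the counts were 357 and 91, 0 for the progesterone difference, 71 for BE against sham, 8 mitosis and 4 replication genes. With 1 probe set per gene they were 218 and 66, 226, 5 and 45. With only the BE and B arrays in the fit they were 404 and 98, with 3 matrix genes, and without B animals A and B 368 and 151. Leaving out each array, BP animal A included, gave 362 to 748 higher, 81 to 317 lower, 47 to 1184 and 8 to 20 for the differences, 7 to 383 against sham, 3 to 5 estrogen targets, 4 to 9 replication genes, 5 matrix genes and 15 to 20 mitosis genes. The highest of these for BE against B, 748 and 317, and 1184 came without BP animal A, which also gave 250 against sham; the cause was not tested.

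The replicate block with the letter as a fixed term gave 869 calls against 785, with 764 shared, and as a random term 854, with all 785 shared. UBD lost its call under the fixed block, and no other named call of BE against B changed. Only BE animal A correlated best with the B animal of its own letter. BE animals B, C and D did so with B animals C, D and A, at 0.13, 0.14 and 0.13. Different-letter correlations ran from -0.21 to 0.14.

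Differences that were not called changed sign as follows: ARG2 to 0.24 without B animal A and 0.243 without B animals A and B; ATP6V0D2 to -0.159 with array weights, -0.153 without B animal A and -0.165 without BE animal C; CD93 to -0.122, -0.281 without B animal A and -0.582 without both; MYC to -0.240 without both. STAT5A turned to 0.0487, 0.0720, 0.0120 and 0.0549 without B animal B, BE animal B, B animal C and BE animal D, STAT5B to 0.0194 with array weights, 0.139 without B animal A and 0.255 without both, and the IGF list median to 0.369 without dim probe sets. Leaving out each array gave -1.03 to 0.24 for ARG2, -0.165 to 0.570 for ATP6V0D2, -0.281 to 0.593 for CD93, -0.185 to 0.0720 for STAT5A and -0.224 to 0.139 for STAT5B. Signal near the lower quartile limits the size of folds for HAPLN1, PGR and several mitosis genes.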

Other observations

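Further called genes of BE against B were picked after their values were seen. PTHLH, parathyroid hormone-related protein, rose by 2.18 ± 0.36 (adjusted p = 0.0004), PTN, pleiotrophin, by 2.67 ± 0.45 (adjusted p = 0.0004) and MDK, midkine, by 1.48 ± 0.26 (adjusted p = 0.0008), each with all BE animals above all B animals (n = 4 each). In HE against H, PTHLH differed by 0.40, PTN by 1.18 and MDK by 1.46. ALPL, an alkaline phosphatase, rose by 2.62 ± 0.51 and CPT1C, a brain-type carnitine palmitoyltransferase, by 2.69 ± 0.36. PAQR8, a membrane progestin receptor like PAQR7, rose by 1.61 ± 0.30 (adjusted p = 0.0011). Among the falls were ANGPT2, angiopoietin-2, by 0.96 ± 0.23 (adjusted p = 0.013), FST, follistatin, by 0.91 ± 0.24 (adjusted p = 0.020) and DDB2, a DNA damage binding protein, by 0.98 ± 0.24 (adjusted p = 0.017).

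TYRP1, a pigment enzyme of melanocytes, was at 8.40, 2.63, 8.97 and 9.51 in BE animals A to D and at 1.87, 2.64, 4.45 and 1.84 in B animals A to D. TYR, tyrosinase, was at 6.33, 2.63, 8.04 and 7.37 in BE and at 3.93, 4.25, 4.88 and 3.55 in B. BE animal B was low in both genes, the other BE animals were above all B animals, and neither difference passed (TYRP1 4.68 ± 1.65, adjusted p = 0.11; TYR 1.94 ± 1.26, adjusted p = 0.46).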
